A study of Mus musculus with 24 samples.

Results

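The 37 genes described here encode enzymes of amino acid breakdown and of the urea cycle, together with one ornithine carrier, and were taken by name from 25239 genes in each table. All 37 were found in the 4 gene tables and all had an adjusted p in each, and 35 of them, all but Ass1 and Sdsl, had at least 1 m6A site. The samples were livers of C57BL/6 mice in 4 groups of 3 animals, namely ApoF knockout (KO) at 28 weeks, wild type (WT) at 28 weeks, KO at 8 weeks and WT at 8 weeks of age. The labels describe the knockout as a loss of the ApoF gene with no tissue or Cre named, and give neither sex nor feeding state. Each liver gave an input library and an immunoprecipitated (IP) library enriched for N6-methyladenosine (m6A, a methylated adenosine in messenger RNA), which makes 24 libraries. The tables hold group summaries, so a level below is a group mean of normalized counts implied by a table's overall mean and ratio, and the spread between the 3 animals enters only through the standard error (SE) of the log2 ratio. Positive ratios mean higher in KO than in WT, or higher at 28 than at 8 weeks. Nothing in the labels says whether the 3 animals were separate litters, so p-values measure the spread between these samples.

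The liver is the main site of amino acid breakdown. Aminotransferases, dehydratases and ring-opening enzymes strip nitrogen from the amino acids and pass the carbon skeletons to the citric acid cycle, ketone bodies or glucose, and the urea cycle turns the released ammonia into urea for excretion. Many of these genes are highly expressed in hepatocytes and are known to respond to glucagon, glucocorticoids, fasting and dietary protein. The urea cycle enzymes and those of histidine and serine breakdown are best known from periportal hepatocytes.

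The livers carried their defining markers: hepatocyte markers summed to 8750786 normalized counts in KO and 6180497 in WT at 8 weeks, and to 5935923 in KO and 6211696 in WT at 28 weeks, with none of 17 at 0 in the authors' deposited tables. Apof, the targeted gene, was lower in KO at 8 weeks (-0.70 ± 0.11) and at 28 weeks (-1.01 ± 0.16) in the authors' deposited tables, with RNA still present in both. The normalized counts of a gene table added up to 39824285 to 41989205, and sequencing depth per library was not stated. In the authors' deposited tables, 4 Y-linked genes summed to 4965 normalized counts in KO and 3.49 in WT at 8 weeks, and to 4680.0 in KO and 4506 in WT at 28 weeks. The WT group at 8 weeks thus held almost no Y-linked RNA. At 8 weeks, in WT between ages and in genotype by age, what this difference marks and the genotype or age cannot be told apart. The mean of the KO group at 8 weeks also held skeletal muscle RNA. Acta1, skeletal muscle actin, stood at 5393 normalized counts in KO at 8 weeks against 4.69 in KO at 28 weeks in the authors' deposited table. The SE of its log2 ratio there was 3.57, with no adjusted p given. The group mean does not show how many of the animals held this RNA. The list of pancreas, muscle, adipose and kidney markers summed to 437 normalized counts in KO at 28 weeks and 13873 in KO at 8 weeks in that authors' deposited table, with Prss2, Cpa1, Ctrb1, Umod and Slc34a1 among those at 0. The part of this RNA in the ratios below was not tested. In bulk liver, fewer cells of a type and less RNA per cell cannot be told apart.

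The 8-week comparison asked what the loss of ApoF changed in the young liver. None of the 37 genes passed the test in the authors' deposited table (0 higher, 0 lower, 37 not passing at an adjusted p under 0.05 by DESeq2's Wald test), against 4.98% of all 15214 genes tested. At an unadjusted p under 0.05 there were 8 genes, 2 with positive and 6 with negative ratios, which is 21.6% of the 37 against 16.6% of all genes. The ratios leaned below 0 in KO. Their median was -0.20, against 0.01 over all genes, and 26 of the 37 were negative. The lowest belonged to Sds, serine dehydratase, with 2647 normalized counts in KO and 4622 in WT (-0.80 ± 0.32, adjusted p = 0.14) by the authors' deposited table. The smallest adjusted p among the 37 was that of Hpd, the dioxygenase that acts after tyrosine transamination, with 70479 normalized counts in KO and 109317 in WT (-0.63 ± 0.23, adjusted p = 0.0919) by the authors' deposited table. At the other end stood Bhmt, which remethylates homocysteine with betaine, at 163221 normalized counts in KO and 91149.7 in WT (0.84 ± 0.33, adjusted p = 0.13) by the authors' deposited table. The SE of the 37 ratios lay between 0.147 and 0.392 in the authors' deposited table.

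By role, the 6 genes of proline, lysine and branched-chain breakdown were all negative at 8 weeks in the authors' deposited table, from -0.67 for Prodh, proline dehydrogenase, to -0.23 for Aldh4a1, the next step of the same route. The 4 genes of histidine breakdown were also all negative, between -0.27 and -0.09, and 4 of the 5 of tyrosine breakdown were. Tat, the aminotransferase that opens tyrosine breakdown, had 83028 normalized counts in KO and 127257 in WT (-0.62 ± 0.29, adjusted p = 0.25) by the authors' deposited table. The urea cycle genes lay closer to 0, with a median of -0.10 and a range from -0.51 for Asl, argininosuccinate lyase, to 0.31 for Cps1, the entry enzyme. None of these groups held a gene that passed. Beside them, hepatocyte markers had a median of 0.24 with 4 of 17 called higher (Alb, Fgb, Fga and Hpx), and stellate cell markers had 3 of 11 called higher (Col1a1, Col1a2 and Col3a1) and 1 called lower (Ecm1) in KO at 8 weeks in the authors' deposited table. Erythroid and neutrophil markers had all 7 tested ratios positive, with a median of 1.45 and Alas2 and Hba-a2 called higher, and lymphocyte markers had all 9 negative, with a median of -1.11 and Cd3g called lower. The part of these in the members' ratios was not tested. When 0.24, the median of the hepatocyte markers, was taken off every ratio, 10 of the 37 were called lower and 0 higher, and 11.4% of all genes were then called lower and 1.7% higher, so the count at 8 weeks depends on that scaling.

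**Figure D1:**
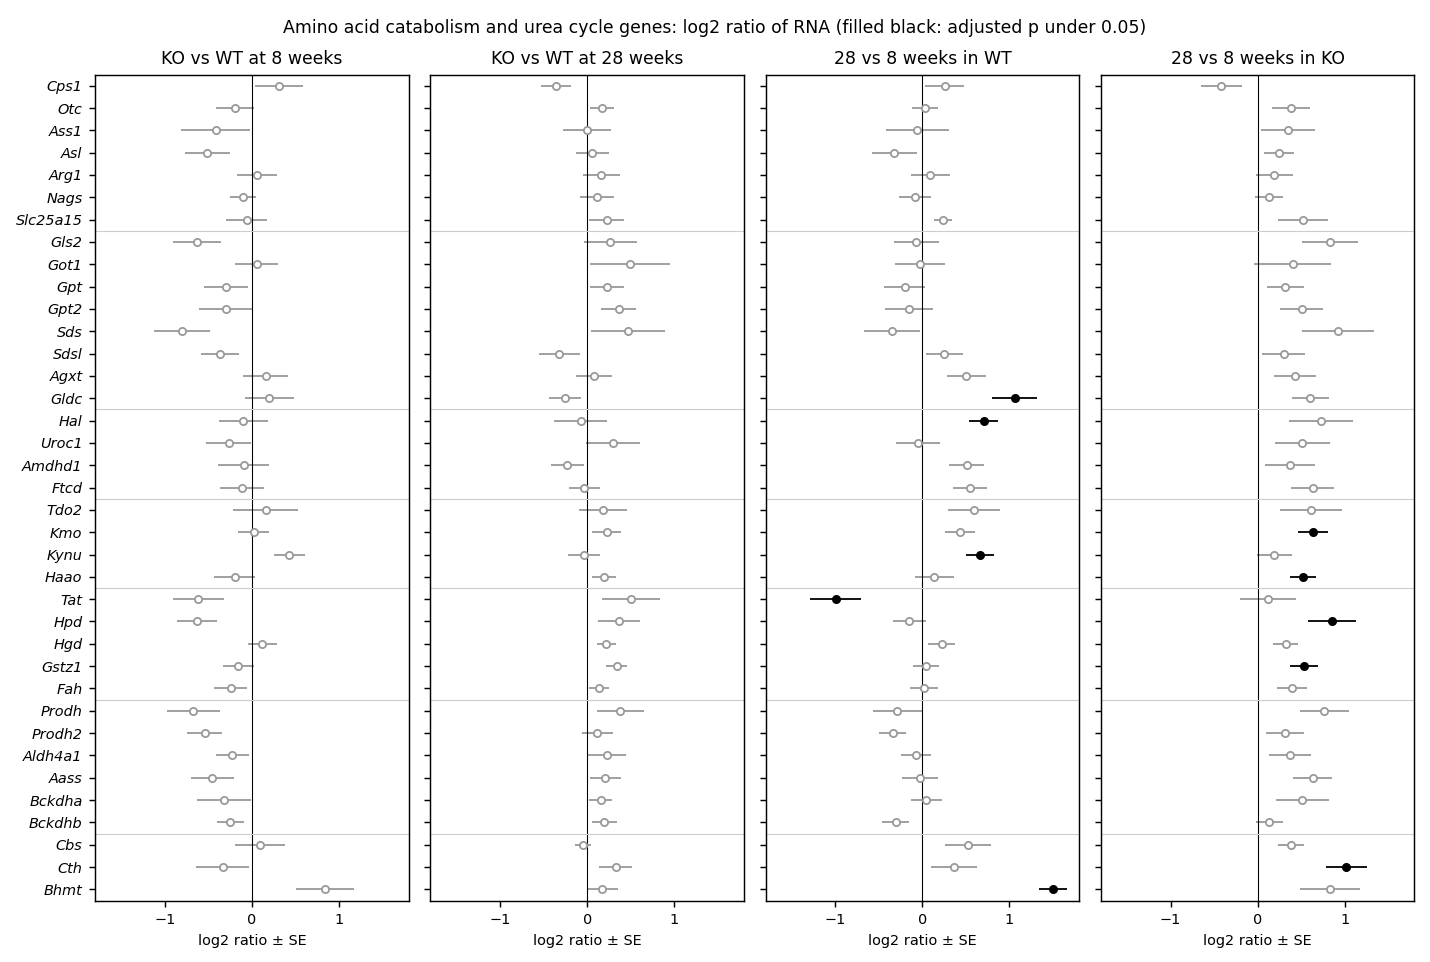
Log2 ratio of RNA with its SE (x axis) for each of the 37 genes (y axis, grouped by role and separated by grey lines) in the 4 comparisons, with 3 animals per group. Filled black points passed an adjusted p under 0.05, which none did between genotypes; with age in KO, 36 of the 37 points lie right of 0.

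The 28-week comparison put the same question to older animals, and its 2 groups had like mean amounts of Y-linked RNA. The SEs of the Y-linked ratios were large, from 2.28 for Ddx3y to 3.30 for Eif2s3y. Like means therefore do not show that the animals within a group were alike. Again 0 of the 37 genes passed (0 higher, 0 lower), with 2 at an unadjusted p under 0.05, 1 positive and 1 negative (5.41% of the 37, against 5.66% of all genes), in the authors' deposited table. Few genes passed at all at this age, 0.257% of 14391. The ratios now leaned above 0: the median was 0.19, against 0.01 over all genes, and 28 of the 37 were positive in the authors' deposited table. All 5 genes of tyrosine breakdown and all 6 of proline, lysine and branched-chain breakdown were positive. The smallest adjusted p was that of Gstz1, the isomerase before the last step of tyrosine breakdown, at 35125 normalized counts in KO and 27745 in WT (0.34 ± 0.12, adjusted p = 0.345) by the authors' deposited table. The highest ratio was that of Tat, with 81419 normalized counts in KO and 57398 in WT (0.50 ± 0.33, adjusted p = 1.00) by the authors' deposited table. The lowest was that of Cps1, at 139841 normalized counts in KO and 179127 in WT (-0.36 ± 0.17, adjusted p = 0.82) by the authors' deposited table. Beside this, 2 of 12 sinusoidal endothelial markers, Stab1 and Stab2, were called lower in KO at 28 weeks.

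Whether the genotype ratio differed between the ages was tested as the difference of the 2 log2 ratios, 28 minus 8 weeks, whose libraries are separate. None of the 37 passed (0 higher, 0 lower, adjusted by Benjamini-Hochberg over 16988 genes), against 1.18% of all genes. There were 10 genes at an unadjusted p under 0.05, 9 with a positive difference, and 10.2% of all genes had such a p. The median difference was 0.39 among the 37 and -0.01 over all genes, and 30 of the 37 were positive. In 21 genes the ratio was negative at 8 weeks and positive at 28 weeks, and in 4 it was the other way round. In 7 it was positive and in 5 negative at both ages. These differences include the 8-week WT group with almost no Y-linked RNA and the 8-week KO group whose mean held skeletal muscle RNA. The part of these in the differences was not tested and cannot be told apart from genotype and age. Hpd had the smallest adjusted p, with ratios of 0.37 at 28 weeks and -0.63 at 8 weeks and a difference of 1.00 ± 0.33 (adjusted p = 0.128). For Sds the difference was 1.27 ± 0.53 (adjusted p = 0.30), for Tat 1.12 ± 0.44 (adjusted p = 0.25) and for Prodh 1.05 ± 0.41 (adjusted p = 0.24). Cps1 alone among the 10 went the other way, at -0.67 ± 0.32 (adjusted p = 0.44). Reads of Gls2, Gstz1 and Sds can overlap with the protein-coding genes Spryd4, Pomt2 and Plbd2 in the RefSeq annotation of GRCm38.p6, and the sources used here do not say whether counting used strand.

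**Figure D2:**
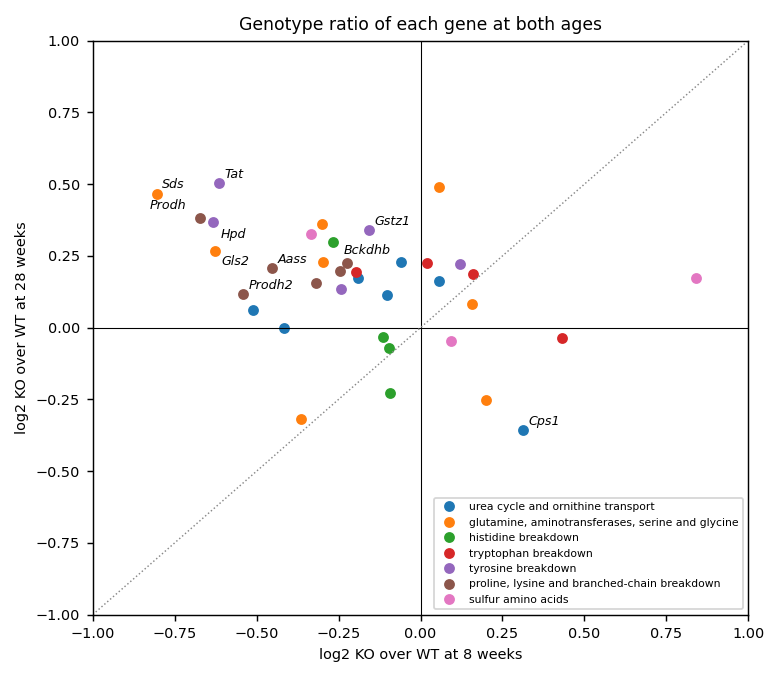
Log2 ratio of KO over WT at 8 weeks (x axis) and at 28 weeks (y axis) for the 37 genes, coloured by role, with equal ratios on the dotted line. Named genes had an unadjusted p under 0.05 for the difference between the ages, and none passed after adjustment. The upper left panel area, negative at 8 and positive at 28 weeks, holds 21 of the 37 genes. The group means at 8 weeks also differed in Y-linked and skeletal muscle RNA.

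Ageing in WT was tested between 28 and 8 weeks. Of the 37 genes, 4 rose (Bhmt, Gldc, Hal and Kynu) and 1 fell (Tat) in the authors' deposited table, against 2.37% of all 13474 genes called higher and 1.86% called lower, and 32 did not pass. Bhmt changed most, to 243588 normalized counts at 28 weeks against 85928 at 8 weeks (1.5 ± 0.16, adjusted p = 1.5e-16) by the authors' deposited table, which is 2.83 times as much. Gldc, the decarboxylase of the glycine cleavage system, had 10833.5 normalized counts at 28 weeks and 5190.3 at 8 weeks (1.06 ± 0.26, adjusted p = 0.0026) by the authors' deposited table. Hal, which opens histidine breakdown by removing ammonia, had 26842 normalized counts at 28 weeks and 16447 at 8 weeks (0.71 ± 0.17, adjusted p = 0.0019) by the authors' deposited table. Kynu, kynureninase of the tryptophan route, had 4981 normalized counts at 28 weeks and 3142 at 8 weeks (0.66 ± 0.16, adjusted p = 0.0023) by the authors' deposited table. Tat fell, with 60124 normalized counts at 28 weeks and 119937 at 8 weeks (-1.0 ± 0.29, adjusted p = 0.0233) by the authors' deposited table.

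The other 32 genes did not move as a block in WT. Of all 37 ratios, 21 were positive, and the median was 0.04 against -0.01 over all genes in the authors' deposited table. At an unadjusted p under 0.05 there were 14 genes, 11 positive and 3 negative (37.8%, against 14.7% of all genes). The 4 genes of tryptophan breakdown were all positive (0.13 to 0.66), as were the 3 of sulfur amino acids, whereas 5 of the 6 genes of proline, lysine and branched-chain breakdown were negative. This comparison shares its WT animals at 8 weeks with the 8-week genotype comparison. The ratios in the 2 authors' deposited tables stand side by side as 1.5 with age in WT and 0.84 for KO over WT at 8 weeks for Bhmt, 1.06 and 0.20 for Gldc, 0.71 and -0.10 for Hal, 0.66 and 0.43 for Kynu, and -1.0 and -0.62 for Tat, and since both use the same WT animals, like signs are no independent support. The Y-linked difference named above separates these 2 groups as well, and hepatocyte markers had a median ratio of 0.20 with 3 of 17 called higher. Called higher at 28 weeks in other marker lists were Sox9 (1.38), of cholangiocytes, Alas2 (3.01), of erythroid cells, and Cela1 (1.86), of the pancreas, muscle, adipose and kidney list, in the authors' deposited table.

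Promoters are shown for 4 of these 5 genes, 3 that rose and 1 that fell with age in WT, from a RefSeq promoter table that held 28 of the 37 genes. Each runs from 250 bases before to 50 after the annotated start, on the gene's own strand, in GRCm38.p6, at chr13:93637709-93638008 (minus strand) for Bhmt, chr19:30175392-30175691 (minus) for Gldc, chr10:93488518-93488817 (plus) for Hal and chr8:109990186-109990485 (plus) for Tat. Capitals mark matches on either strand to the CCAAT box (CCAAT, or ATTGG on the other strand) and the TATA box (TATAAA, or TTTATA), which do not overlap here.
Bhmt: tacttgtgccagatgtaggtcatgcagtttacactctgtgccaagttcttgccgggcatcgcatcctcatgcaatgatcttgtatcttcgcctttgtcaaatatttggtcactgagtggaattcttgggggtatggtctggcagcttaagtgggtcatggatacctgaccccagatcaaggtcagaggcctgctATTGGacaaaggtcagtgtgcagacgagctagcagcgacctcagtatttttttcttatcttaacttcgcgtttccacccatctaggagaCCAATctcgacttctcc
Gldc: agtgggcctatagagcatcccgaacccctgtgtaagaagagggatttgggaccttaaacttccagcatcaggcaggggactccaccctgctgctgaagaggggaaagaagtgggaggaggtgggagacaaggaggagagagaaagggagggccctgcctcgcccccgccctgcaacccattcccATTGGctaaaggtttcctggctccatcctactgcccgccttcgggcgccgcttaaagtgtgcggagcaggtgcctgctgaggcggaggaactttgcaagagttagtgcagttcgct
Hal: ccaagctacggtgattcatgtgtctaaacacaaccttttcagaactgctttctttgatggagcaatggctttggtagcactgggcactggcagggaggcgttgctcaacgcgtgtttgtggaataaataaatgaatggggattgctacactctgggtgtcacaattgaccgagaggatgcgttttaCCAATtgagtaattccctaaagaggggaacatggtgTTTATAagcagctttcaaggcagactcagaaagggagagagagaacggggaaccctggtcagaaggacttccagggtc
Tat: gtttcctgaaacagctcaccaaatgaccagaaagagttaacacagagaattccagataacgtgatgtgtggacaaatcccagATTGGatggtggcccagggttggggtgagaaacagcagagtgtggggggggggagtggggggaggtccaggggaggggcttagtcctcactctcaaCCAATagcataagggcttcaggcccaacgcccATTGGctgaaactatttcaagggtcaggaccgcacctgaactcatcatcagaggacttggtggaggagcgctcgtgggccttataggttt
All 4 hold CCAAT, which 37.4% of 32851 promoters of the same length hold, Tat at 3 places, the nearest beginning 40 bases before the start. TATAAA was matched in Hal alone among the 4, beginning 28 bases before the start, and is found in 13.6% of all. The E-box CACGTG (7.15% of all promoters), the cAMP response element TGACGTCA (1.79%), the C/EBP motif TTGCGCAA (0.183%) and the HNF4 motif CAAAGTCCA (0.475%) were searched on both strands in the same way and were not matched in these 4 windows.

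**Figure D3:**
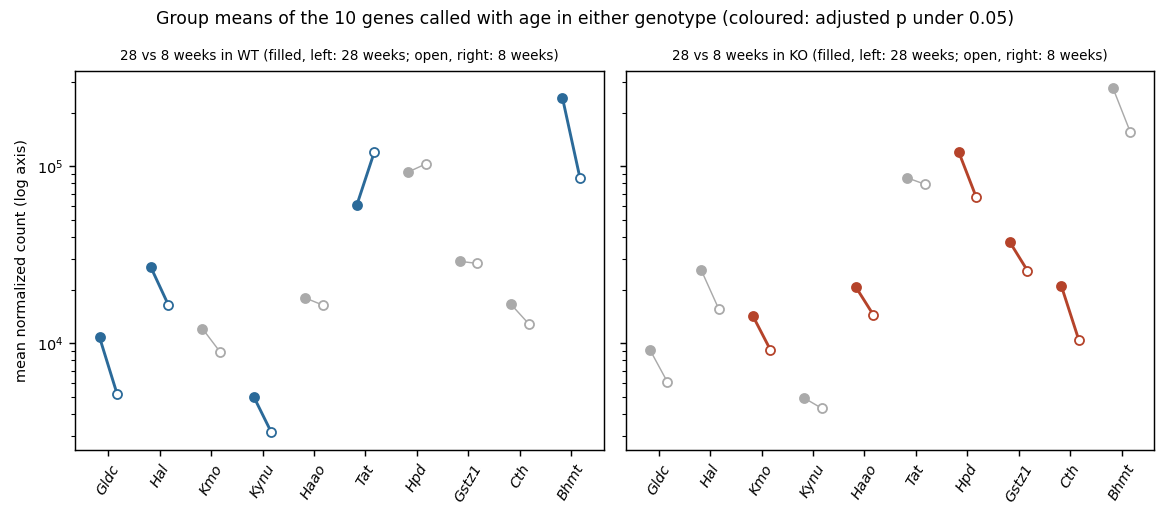
Mean normalized count (y axis, log scale) of the 10 genes that passed with age in WT or KO (x axis), with 28 weeks as filled points on the left and 8 weeks as open points on the right of each pair. Coloured pairs passed an adjusted p under 0.05 and grey pairs did not; Bhmt in WT had 243588 and 85928, and Tat is the one pair that slopes up towards 8 weeks in colour.

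Ageing in KO gave 5 genes that rose and 0 that fell in the authors' deposited table, against 2.03% of all 14798 genes called higher and 2.46% called lower. Cth, which splits cystathionine to give cysteine, had 21021 normalized counts at 28 weeks and 10388 at 8 weeks (1.02 ± 0.24, adjusted p = 0.00129) by the authors' deposited table. Hpd had 121196 normalized counts at 28 weeks and 67324 at 8 weeks (0.85 ± 0.28, adjusted p = 0.0481) by the authors' deposited table. Kmo, the hydroxylase of kynurenine, had 14302 normalized counts at 28 weeks and 9210.3 at 8 weeks (0.63 ± 0.17, adjusted p = 0.0097) by the authors' deposited table. Gstz1 had 37192 normalized counts at 28 weeks and 25725 at 8 weeks (0.53 ± 0.16, adjusted p = 0.0329) by the authors' deposited table. Haao, which acts 2 steps after Kmo, had 20854 normalized counts at 28 weeks and 14531 at 8 weeks (0.52 ± 0.15, adjusted p = 0.0177) by the authors' deposited table. These 5 belong to the routes of tyrosine, tryptophan and sulfur amino acids.

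The other ratios lay mostly on the same side. In KO, 36 of the 37 ratios (97.3%) were positive, against 49.5% of all genes. Their median was 0.43 against -0.00 over all genes in the authors' deposited table. At an unadjusted p under 0.05 there were 17, all positive (45.9%, against 15.8% of all genes). Of the further breakdown enzymes described below, 59 of 68 tested ratios were also positive, with a median of 0.31. The exception among the 37 was Cps1, with 148002 normalized counts at 28 weeks and 197584 at 8 weeks (-0.42 ± 0.24, adjusted p = 0.41) by the authors' deposited table. Among genes that did not pass, Sds stood at 0.92 ± 0.42 (adjusted p = 0.23), Gls2, liver glutaminase, at 0.83 ± 0.32 (adjusted p = 0.13) and Bhmt at 0.83 ± 0.34 (adjusted p = 0.16) by the authors' deposited table. Tat had 86137 normalized counts at 28 weeks and 79309 at 8 weeks in KO (0.12 ± 0.32, adjusted p = 0.93) by the authors' deposited table, where in WT it fell. The test of genotype by age given above bears on this difference and did not pass for Tat. Beside these ratios, 6 of 11 stellate cell markers and 4 of 12 endothelial markers were called lower in KO at 28 weeks. So were 2 of 17 hepatocyte markers (Alb and Ahsg) and Hba-a2 of 8 erythroid and neutrophil markers. Lymphocyte markers had 7 of 8 ratios positive, with a median of 0.50 and 0 called. The muscle RNA in KO at 8 weeks was 1 side of this comparison. The 4 Y-linked genes summed to 4948 normalized counts in KO at 28 weeks and 4747 at 8 weeks in the authors' deposited table. The SEs of their ratios ran from 2.54 for Kdm5d to 3.33 for Eif2s3y. Like sums therefore do not show that the KO animals within a group were alike. The part of these in the members' ratios was not tested.

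Further enzymes of amino acid breakdown, 71 listed by pathway, stood beside the 37 as follows. In KO at 8 weeks, 1 of 68 tested rose and 3 fell in the authors' deposited table. Ethe1, the persulfide dioxygenase, rose (0.94 ± 0.26, adjusted p = 0.0086), while Ahcy, which hydrolyses S-adenosylhomocysteine, fell (-1.01 ± 0.31, adjusted p = 0.0271), as did Shmt1 (-0.55 ± 0.14, adjusted p = 0.0045) and Kyat3 (-0.57 ± 0.18, adjusted p = 0.0433) by the authors' deposited table. At 28 weeks 0 of 67 passed. With age, 4 of 67 rose and 1 fell in WT, and 8 of 68 rose and 0 fell in KO, in the authors' deposited tables. Oat, ornithine aminotransferase, led those in KO, with 37856 normalized counts at 28 weeks and 16397 at 8 weeks (1.21 ± 0.27, adjusted p = 5.6e-04) by the authors' deposited table. Ahcy rose in KO with age (0.94 ± 0.25, adjusted p = 0.0077), as did Aadat (1.00 ± 0.28, adjusted p = 0.0147) and Gcdh (0.53 ± 0.16, adjusted p = 0.0297) by the authors' deposited table. In WT the calls included Ethe1 (1.48 ± 0.23, adjusted p = 5.2e-08), Qprt (0.61 ± 0.14, adjusted p = 0.0018) and Grhpr (0.83 ± 0.22, adjusted p = 0.0071), which rose, and Kyat3 (-0.62 ± 0.17, adjusted p = 0.0119), which fell, in the authors' deposited table.

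Transporters and enzymes of synthesis changed at few places. Of 23 amino acid transporters tested at 8 weeks, Slc1a4, a neutral amino acid carrier, rose to 525 normalized counts in KO against 165 in WT (1.67 ± 0.39, adjusted p = 0.0014) by the authors' deposited table. Slc16a10, which carries aromatic amino acids, fell to 1518 normalized counts in KO against 3121 in WT (-1.04 ± 0.28, adjusted p = 0.0094) by the authors' deposited table. With age Slc16a10 and Slc3a2 fell in WT (-0.72 and -0.41), and Slc1a4 fell in KO (-1.51), in the authors' deposited tables. Among 8 synthesis enzymes tested at 8 weeks, Asns, asparagine synthetase, had 139 normalized counts in KO and 7.7 in WT (4.18 ± 0.90, adjusted p = 3.0e-04) by the authors' deposited table. Aldh18a1, the first enzyme of proline synthesis, had 214 normalized counts in KO and 26.3 in WT (3.02 ± 0.67, adjusted p = 4.9e-04) at 8 weeks, and fell with age in KO (-3.01 ± 0.76, adjusted p = 0.0048) by the authors' deposited tables. None of these lists held a gene that passed between genotypes at 28 weeks.

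The m6A tables list 163, 170 and 167 sites in the 37 genes for the 8-week, 28-week and WT age comparisons, of which 153, 162 and 157 had an adjusted p. A site's reads were summed over the 3 animals of a group, so its p does not show how the animals varied, and the number of reads weighs on what can be called. Their sites were deeply read. The median of the input reads in the lower group was 1979, 2607 and 2187, against 473, 720.0 and 625 over all sites tested. Sites are numbered within a gene in the order of each table, since the sources used here give no positions.

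At 8 weeks, 42 sites were higher and 14 lower in KO in the authors' deposited table, that is 56 of 153 (36.6%) in 28 genes, where 5.52% of all 25727 sites tested were higher and 5.43% lower. Among sites with at least 1000 input reads in each group, 52 of 110 (47.3%) passed, 41 higher and 11 lower. Of all such sites 24.5% passed, 14.1% higher and 10.4% lower. The floor does not match depth, since sites of these genes reached up to 162456 input reads (Bhmt in KO at 8 weeks). Their depth above the floor was not compared with that of all sites. At 28 weeks, 11 were higher and 18 lower, 29 of 162 (17.9%) in 16 genes, against 2.57% and 6.62% of all 18751 sites. With at least 1000 reads, 28 of 124 (22.6%) passed, 11 higher and 17 lower, against 18.0% of all, 5.64% higher and 12.3% lower. With age in WT, 37 were higher and 7 lower at 28 weeks, 44 of 157 (28.0%) in 25 genes, against 9.06% and 2.20% of all 20628 sites, and at the deeper sites 35 of 112 (31.2%) passed, 30 higher and 5 lower, against 23.7% of all, 19.3% higher and 4.40% lower. The changes were small. The median size of a called log2 ratio was 0.18, 0.17 and 0.17, and only 3, 1 and 1 of the called sites reached 1.5-fold in the authors' deposited tables. When ratios were recomputed from the read sums, the balance at 28 weeks turned to 18 higher and 10 lower. That is 64.3% higher, against 37.9% as deposited, so the direction at that age rests on the authors' offset. Of all sites at 28 weeks, 2.48% passed when recomputed, in either direction.

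**Figure D4:**
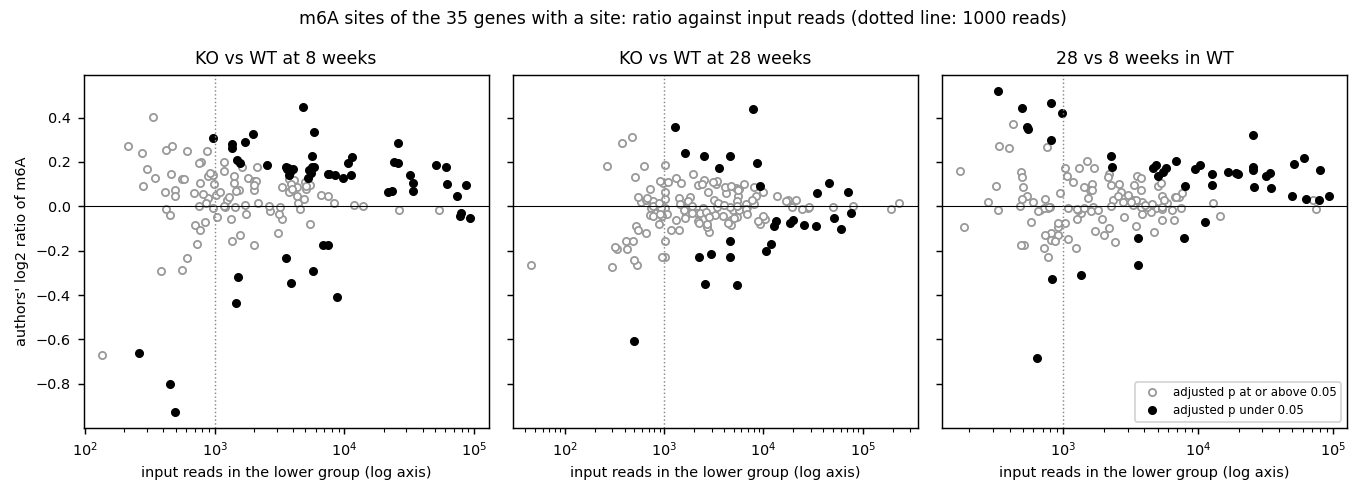
The authors' log2 ratio of m6A (y axis) against the input reads of the lower group (x axis, log scale) for each tested site in the 35 genes, with 1 panel per comparison. Black sites passed an adjusted p under 0.05, 56, 29 and 44 of them, and most lie right of the dotted line at 1000 reads.

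By role, the urea cycle genes had 11 of 26 tested sites higher and 2 lower at 8 weeks, and 3 of 28 higher and 5 lower at 28 weeks, in the authors' deposited tables. Recomputed from the read sums, these were 8 higher and 1 lower at 8 weeks, and 5 higher and 2 lower at 28 weeks. The shares of all sites called in each direction, given above at both depths, are the background for the deposited counts. For the recomputed counts the background is 3.73% of all sites at 8 weeks and 2.48% at 28 weeks, in either direction. Cps1 had all of its 6 sites called higher in KO at 8 weeks. Its site 5 counted 10521 IP and 8867 input reads in KO and 3884 IP and 4771 input reads in WT (log2 ratio 0.45, adjusted p = 1.7e-30) by the authors' deposited table. Its site 1 was also higher (0.18, adjusted p = 4.1e-54), and so was site 4 (0.18, adjusted p = 2.0e-40) by the authors' deposited table. Otc, which makes citrulline, was higher at site 3 (0.20, adjusted p = 6.1e-32) by the authors' deposited table. The aminotransferase, glutamine, serine and glycine genes had 9 of 30 tested sites higher and 2 lower at 8 weeks and 0 called of 31 at 28 weeks. In tyrosine breakdown 6 of 21 sites were higher and 2 lower at 8 weeks (4 and 3 recomputed), and 3 of 25 higher and 7 lower at 28 weeks (5 and 4 recomputed). Sulfur amino acid genes had 1 of 9 sites higher and 4 lower at 8 weeks, 3 of the lower ones in Bhmt.

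The smallest adjusted p at 8 weeks was that of Tdo2, which opens tryptophan breakdown. Its site 1 counted 42512 IP and 27247 input reads in KO and 30233 IP and 25662 input reads in WT (0.28, adjusted p = 2.9e-63) by the authors' deposited table. Amdhd1, an enzyme of histidine breakdown, was lower at its site 4, with 11032 IP and 8780.0 input reads in KO and 16447 IP and 11174 input reads in WT (-0.41, adjusted p = 4.6e-48) by the authors' deposited table. At 28 weeks Bhmt led, with 6858 IP and 8421 input reads at its site 2 in KO and 4945 IP and 7877 input reads in WT (0.44, adjusted p = 3.9e-33) by the authors' deposited table. Hpd was lower at its site 1 (-0.10, adjusted p = 4.6e-19), Ftcd, the last enzyme of histidine breakdown, at its site 2 (-0.20, adjusted p = 3.2e-15) and Amdhd1 at its site 4 (-0.17, adjusted p = 6.7e-12), while Cps1 was higher at its site 6 (0.10, adjusted p = 2.2e-12) by the authors' deposited table.

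Of the sites with at least 1000 input reads, one in Tat had the highest m6A level. The m6A level below is the log2 of IP over input reads with the median of all sites set to 0, and the sites of these genes had group medians between -0.62 and -0.56. At site 3 of Tat the level was 0.87 in KO and 1.21 in WT at 28 weeks, from 12117 IP and 5509 input reads in KO and 15836 IP and 5396 input reads in WT. At 8 weeks the level was 0.92 in KO and 1.24 in WT, from 12984 IP and 5720.0 input reads in KO and 32557 IP and 13043 input reads in WT. The site was thus lower in KO at both ages, by -0.35 at 28 weeks (adjusted p = 4.5e-25) and -0.29 at 8 weeks (adjusted p = 3.7e-24), and did not pass with age in WT (-0.00, adjusted p = 0.98) by the authors' deposited tables. The RNA of Tat did not pass between genotypes at either age and had ratios of opposite sign.

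Sites that could be traced through all 3 tables by the read sums of the shared WT groups numbered 74 in 31 genes. Of these, 29 were called between genotypes at 8 weeks and 15 at 28 weeks, 13 of them at both ages. In 9 of the 13 the sign was the same at both ages in the authors' deposited tables. Sites of other genes were not traced in this way, so these counts have no share over all traced sites beside them. Of all sites with at least 1000 input reads in each group, 24.5% were called at 8 weeks and 18.0% at 28 weeks. Lower in KO at both ages were, beside Tat, sites in Amdhd1 (-0.17 at 28 and -0.41 at 8 weeks), Fah, the last enzyme of tyrosine breakdown (-0.15 and -0.34), Ftcd (-0.20 and -0.17), Hal (-0.35 and -0.32) and Slc25a15, the mitochondrial ornithine carrier (-0.61 and -0.93), in the authors' deposited tables. The Slc25a15 site had 498 to 540.0 input reads per group at 28 weeks. Recomputed from the read sums, it gave 0.03 at 28 weeks and -0.01 at 8 weeks, so its deposited ratios do not follow from those sums. Over the sites of these genes, deposited minus recomputed ratios lay between -0.07 and -0.02 at 28 weeks (5th to 95th percentile). At 8 weeks they lay between -0.02 and 0.12. The Slc25a15 site is also the 1 called site that reached 1.5-fold at 28 weeks. At 8 weeks Amdhd1 site 1 also reached 1.5-fold as deposited (-0.66), but its levels, -0.71 in KO and -0.58 in WT, lay closer together than that. It counted 192 IP and 262 input reads in KO and 195 IP and 276 input reads in WT. Higher in KO at both ages were 2 sites of Cps1 (0.10 and 0.18, and 0.23 and 0.45) and 1 of Hgd, homogentisate dioxygenase (0.17 and 0.17). Tdo2 (-0.09 at 28 and 0.28 at 8 weeks), Prodh (-0.09 and 0.14) and Asl (-0.06 and 0.06) were lower at 28 and higher at 8 weeks, and Arg1, the arginase that releases urea, was higher at 28 and lower at 8 weeks (0.06 and -0.04), in the authors' deposited tables. Whether the genotype ratio of a site differed between the ages was not tested.

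**Figure D5:**
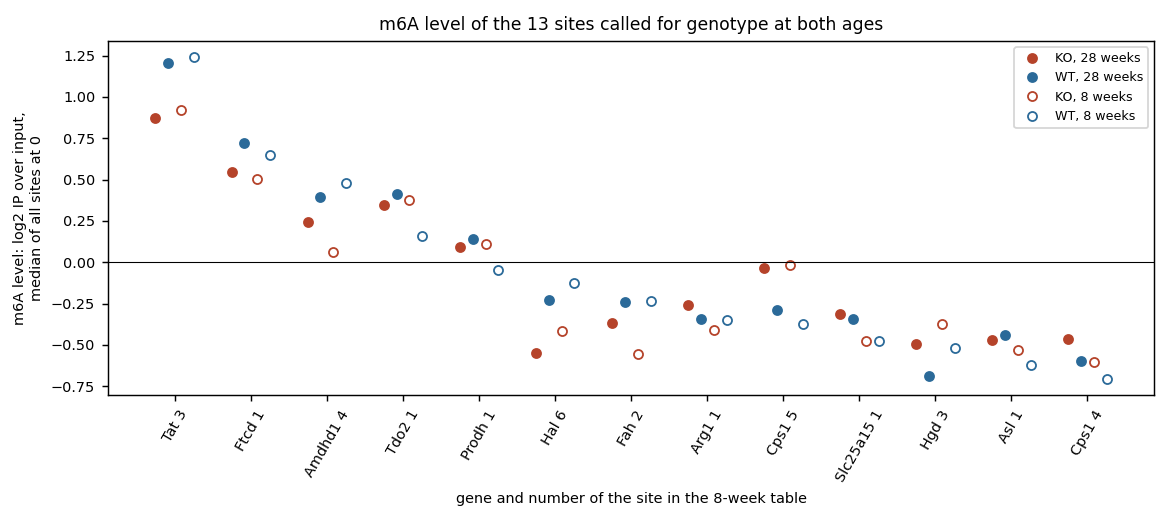
m6A level (y axis, log2 of IP over input with the median of all sites at 0) of the 13 sites called between genotypes at both ages (x axis, gene and site number in the 8-week table), in KO and WT at 28 weeks (filled) and KO and WT at 8 weeks (open). At Tat site 3 both KO points, 0.87 and 0.92, lie below both WT points, 1.21 and 1.24.

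With age in WT, the called sites were mostly higher at 28 weeks. Tdo2 led again, with 57514 IP and 33927 input reads at its site 1 at 28 weeks and 30233 IP and 25662 input reads at 8 weeks (0.32, adjusted p = 5.5e-89) by the authors' deposited table. Cps1 site 1 (0.22, adjusted p = 8.8e-78) and site 4 (0.19, adjusted p = 8.5e-40), Arg1 site 2 (0.16, adjusted p = 5.1e-54), Otc site 3 (0.18, adjusted p = 7.1e-26) and Tdo2 site 2 (0.16, adjusted p = 4.1e-20) followed in the authors' deposited table. Urea cycle genes had 12 of 25 tested sites higher and 0 lower, where 9.06% of all sites tested, and 19.3% of the deeper ones, were higher. Recomputed, 5 were higher and 0 lower, where 2.01% of all sites passed in either direction. Called lower at 28 weeks were, among others, Cth site 1 (-0.68, adjusted p = 8.0e-07) and Bhmt site 3 (-0.26, adjusted p = 5.1e-07) by the authors' deposited table. Cth site 1 counted 409 IP and 642 input reads at 28 weeks and 611 IP and 716 input reads at 8 weeks. This table shares its WT animals at 8 weeks with the 8-week genotype table, where Tdo2 site 1 stood at 0.28 and Cth site 1 at -0.80.

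For the 5 genes whose RNA passed with age in WT, the sites stood as follows. These genes were picked by their RNA ratio in this same comparison, so the sizes of RNA and site ratios cannot be weighed against each other. Bhmt, whose RNA rose by 1.5, had called site ratios between -0.26 and 0.05, and Hal, whose RNA rose by 0.71, had 0 of 9 sites called in the authors' deposited table. Gldc had 1 of 6 sites called, lower at 28 weeks (-0.33, adjusted p = 0.0107), and Kynu had 1 of 6 called, higher (0.13, adjusted p = 0.0045) by the authors' deposited table. Tat, whose RNA fell by 1.0, had 2 of 5 sites called, both higher (0.15 and 0.05), in the authors' deposited table. These are differences on the log2 scale of 2 different measures, RNA level and IP over input, and were not tested against each other.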

How the data were processed

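Input and IP libraries were stranded and carried molecular identifiers, per the labels' protocols. The submitters' processing notes name HISAT2, StringTie and DESeq, without versions, and the sources used here name no genome build. The signal column of the gene tables is the authors' base mean of size-factor normalized counts. The log2 ratios, with SE, statistic score, p-value and adjusted p, were deposited by the authors. Site tables hold the authors' read counts summed per group, their log2 ratio and adjusted p, per the file headers. The planned edgeR test was not needed, since the tables hold no values per library.

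The tables do not state the numerator. Deposited RNA ratios ran opposite to input read ratios (Pearson r between -0.8724 and -0.7291 over at least 11045 genes per table, which are no independent replicates), so their signs were turned. The 4 RNA tables closed to a median residual of 0.00357 over 13383 genes. Site signs were kept.

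An adjusted p under 0.05 was the threshold. The genotype by age difference was tested with a Wald p. On simulated data changed by 1 and by 2 log2 units it called 24 and 62 of 100 genes, and 4 of 16788 unchanged ones. Recomputed site ratios added 0.5 to each sum, took off the median and used counting error. Named were all genes that passed, with extremes by ratio, up to 4 genes per other list and 6 sites per table. Sites called at both ages, sites of genes with called RNA, the genes around the genotype by age difference and Acta1 were named after their values were seen. The members and lists were chosen with earlier results of these data known. The knockout age site table is not used here. Scripts ran under pandas 2.3.3, numpy 2.4.6, scipy 1.17.1, matplotlib 3.10.9 and Python 3.11.15.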

Additional observations from a re-analysis of the deposited data

How the results depend on the processing

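No paired analysis was possible because the tables hold group summaries, and for the same reason no animal could be left out. Between genotypes at 8 weeks, 2 genes passed at an adjusted p under 0.1 and 10 relative to the hepatocyte markers, all lower, against 0 as deposited. At 28 weeks 0 passed under each of the 6 alternatives, and the genotype by age count stayed at 0 under both of its own. With age in KO, 2 genes passed at an adjusted p under 0.01 and 3 at 1.5-fold or more, against 5. With age in WT the 5 calls became 7 relative to the hepatocyte markers, 4 higher and 3 lower (57.1% higher against 80.0%). Relative to those markers, 1.48% of all genes were called higher and 8.56% lower with age in WT. Between genotypes at 8 weeks these shares were 1.7% and 11.4%. The 10 genes called with age kept their direction and passed under both centrings, the 2 alternatives that could change a sign. Of the 10, 4 did not pass at 0.01, and 1 did not pass when adjusted over every gene with a p. Sites of at least 1.5-fold numbered 3, 1 and 1 against 56, 29 and 44. Recomputed from the read sums, 25 sites passed with age in WT against 44, of which 72.0% were higher against 84.1%. For the genotype comparisons 45 sites passed at 8 weeks and 28 at 28 weeks. Over all sites, 2.01% passed when recomputed with age in WT, 3.73% at 8 weeks and 2.48% at 28 weeks, with no split by depth. Of 129 called sites, 88 passed again when recomputed, 39 did not, and 2 took the other sign: Slc25a15 site 1 at 28 weeks (0.0315) and Bhmt site 4 with age in WT (-0.006). The restriction to 1000 input reads was chosen after seeing the data. In simulated data at this design, 24 of 100 genes with a genotype by age difference of 1 log2 unit passed, so smaller ones may not be detectable, and at sites the spread between animals is not known.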

Other observations

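Transcription factors and receptors known to act on amino acid genes were described beside the enzymes. At 8 weeks 0 of 16 passed, and all 16 ratios of KO over WT were negative, from -0.70 to -0.03 with a median of -0.27, in the authors' deposited table. At 28 weeks 0 of 16 passed, and 9 ratios were positive, with a median of 0.02, in the authors' deposited table. With age in KO, Cebpa, which encodes a hepatocyte transcription factor of the C/EBP family, rose to 23821 normalized counts at 28 weeks against 15545 at 8 weeks (0.62 ± 0.15, adjusted p = 0.0034) by the authors' deposited table, and 11 of the 16 ratios were positive. With age in WT, 0 of 16 passed and 5 ratios were positive. Pericentral hepatocyte genes, 13 in all, had a median ratio of KO over WT of 0.23 at 28 weeks and -0.28 at 8 weeks, with 0 and 1 called (Slc1a4, higher at 8 weeks), in the authors' deposited tables. The 10 periportal genes outside the 37 had medians of 0.10 at 28 weeks, with Cdh1 called lower (-1.51), and -0.00 at 8 weeks, with Alb (0.62) and Mup20 (3.67) called higher, in the authors' deposited tables.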
